A study of Mus musculus with 12 samples.

Results

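Transcripts of microglia from the striatum were compared with those of microglia from the hippocampus. The comparison used 6 of the 12 libraries of the series, 3 of striatum and 3 of hippocampus, chosen by the region and replicate in the column names of the count table. The other 6 libraries, 3 of cortex and 3 of cerebellum, entered the fit only to estimate the spread between libraries. Striatum and hippocampus libraries alike came from wild type male C57BL6N mice at P60, that is postnatal day 60, and the labels name no treatment. For each library, 3 to 5 mice gave the pooled tissue of 1 region, and 3000 live cells of the TMEM119+ gate, which were also low for CD45 and positive for CD11b, were sorted. RNA was copied and amplified with the Smart-Seq v4 kit for low input and sequenced as bulk RNA. The labels do not state whether the pools came from separate mice. A p-value here therefore reflects only how much libraries of the same region vary, over all regions fitted, and that variation may be technical. In bulk libraries, fewer cells of a type and less RNA per cell cannot be told apart.

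Microglia are the resident macrophages of the brain. They arise from yolk sac progenitors, depend on signalling through the receptor CSF1R, and in the healthy adult express a set of genes often called homeostatic, such as P2ry12, Tmem119 and Sall1. They survey the tissue with motile processes, take up debris and synaptic material, and can present antigen and secrete cytokines. Striatum and hippocampus differ in their neurons and circuits, and the comparison asks whether the homeostatic microglia of these regions differ in their transcripts.

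Total counts were 8574116, 6479839 and 12696248 in striatum 1, 2 and 3, and 9394829, 10842544 and 12897889 in hippocampus 1, 2 and 3. Striatum 2 stood apart from the other 5 libraries. Among 10018 genes that averaged 50 counts or more over the series, 986 (9.84%) were at 0 in striatum 2, against 4 to 44 in any other library of the series. Its log2 CPM values (CPM, counts scaled to library size after TMM) correlated across genes at 0.755 and 0.771 with those of the other striatum libraries and at 0.753 to 0.769 with hippocampus. Striatum 1 and 3 correlated at 0.914 with each other and at 0.899 to 0.931 with the hippocampus libraries, which correlated at 0.910 to 0.920 among themselves. Genes are not independent replicates, and these values are given as a description. Results that rest on striatum 2 are therefore given with and without it.

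No gene passed the threshold. Of 12217 genes tested with edgeR's quasi-likelihood test, 0 (0%) had a Benjamini-Hochberg adjusted p under 0.05, and the smallest adjusted p was 0.948. DESeq2 and limma-voom also called 0 genes, and edgeR called 0 without striatum 2. At an unadjusted p under 0.05, edgeR gave 530 genes (4.34% of those tested), with 340 (2.78%) higher and 190 (1.56%) lower in striatum. The count moved to 327 genes (2.68%) without striatum 2, to 817 without striatum 1, to 950 without striatum 3 and to 296 without hippocampus 2. It was 354 without hippocampus 1 and 430 without hippocampus 3. The balance of directions moved with the tool, since limma-voom gave 206 genes higher and 323 lower in striatum.

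The unadjusted count changed with striatum 2, though not with that library alone. Striatum 2 was the highest of the 6 libraries for 294 of the 340 higher genes, and it had no count for 77 of the 190 lower genes. Over all 12217 genes tested it had no count for 2333. How often it was the highest library over all genes was not counted, so the 294 has no share of all genes beside it. Without it, 162 genes were higher and 165 lower at an unadjusted p under 0.05. The 2 sets shared 175 genes with the same direction, which were 33.0% of the 530 and 53.5% of the 327. Among the shared genes 80 were higher and 95 lower in striatum. The median log2 difference over all genes was −0.05, with 46.1% of genes higher in striatum, and −0.00 with 49.5% higher without striatum 2.

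In 1404 genes (11.5%) the 3 striatum libraries lay entirely above or entirely below the 3 hippocampus libraries, 599 (4.9%) above and 805 (6.59%) below. Without striatum 2, 2450 genes (20.1%) had libraries that did not overlap, a count over fewer libraries. Among the genes at an unadjusted p under 0.05, 212 of the higher and 152 of the lower ones did not overlap. The genes named next are those of this kind with the smallest p in each direction, leaving out predicted genes, clones and ribosomal protein genes. None of them passed the adjusted threshold.

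**Figure D1:**
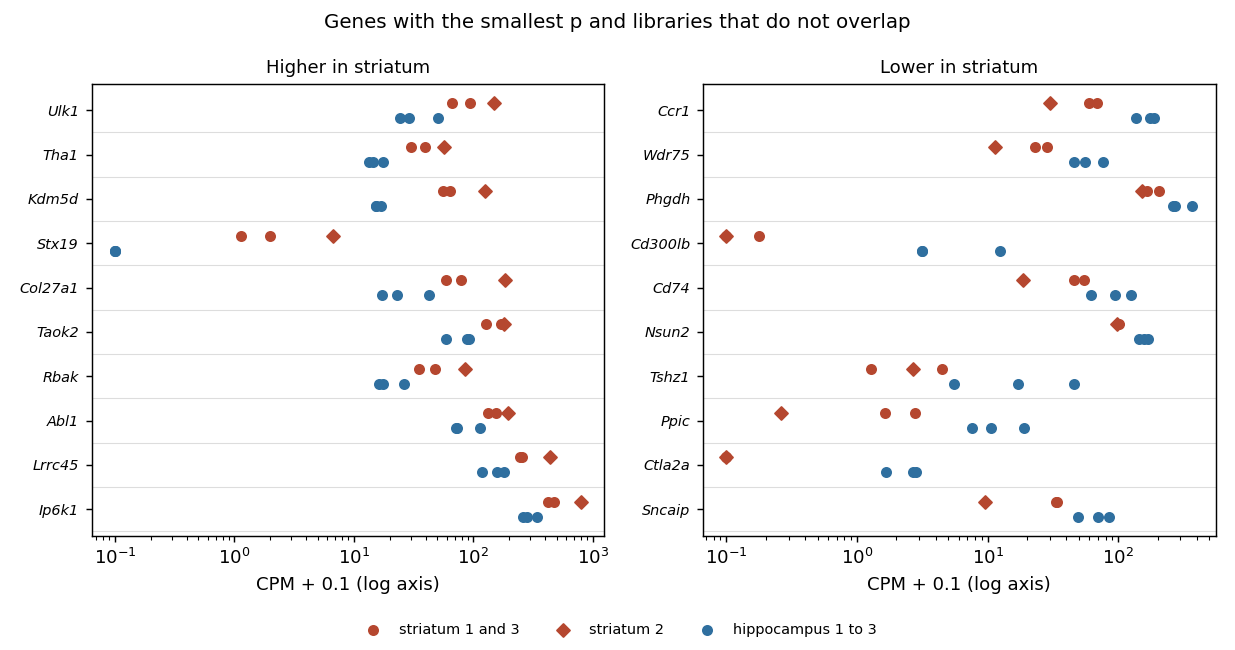
Level of the 10 genes higher and the 10 lower in striatum with the smallest p among genes whose libraries do not overlap, as CPM + 0.1 on a log axis, 1 point per library. Striatum 2 (diamonds) is the highest striatum library for 10 of the genes on the left, and Ccr1 sits at 29.7 to 68.6 CPM in striatum, against 137 to 188 CPM in hippocampus.

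Ulk1 (chromosome 5, 110784488 to 110810097, mm10), whose product phosphorylates the autophagy machinery and starts autophagosome formation, was at 66.6, 149 and 93.9 CPM in striatum 1, 2 and 3, against 50.2, 28.9 and 24.2 CPM in hippocampus 1, 2 and 3. Every striatum library was above every hippocampus library, and striatum 2 was the highest. The log2 difference was 1.58 (SE 0.37, 95% interval 0.77 to 2.39) and 1.22 without striatum 2. Ulk1 averaged 39.2 ± 6.58 CPM in cortex and 58.3 ± 15.0 CPM in cerebellum (SD, n = 3 each), between the means of striatum and hippocampus.

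Taok2, a kinase of the STE20 group that acts upstream of stress-activated MAP kinases, was at 128, 181 and 172 CPM in striatum and 89.3, 58.8 and 91.6 CPM in hippocampus. Abl1, a tyrosine kinase that acts on the actin cytoskeleton, was at 155, 197 and 132 CPM in striatum and 73.5, 71.5 and 113 CPM in hippocampus. Ip6k1, which makes inositol pyrophosphates, was at 426, 792 and 470.3 CPM in striatum and 279.9, 263 and 342 CPM in hippocampus. In all 3 genes striatum 2 was the highest library, and the log2 differences of 1.00 for Taok2, 0.90 for Abl1 and 0.93 for Ip6k1 became 0.91, 0.74 and 0.61 without it.

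Tha1 (chromosome 11, 117867952 to 117873481), a threonine aldolase that is active in mice, was at 30.2, 56.9 and 39.1 CPM in striatum and 13.18, 17.5 and 14.4 CPM in hippocampus, with hippocampus libraries close together. Its log2 difference was 1.49 (SE 0.36) and 1.21 without striatum 2. Lrrc45, a component of the linker between centrioles, was at 244, 442 and 255 CPM in striatum and 182, 119 and 157 CPM in hippocampus (log2 difference 1.04, or 0.71 without striatum 2). Rbak, a zinc finger repressor that binds the retinoblastoma protein, was at 47.7, 85.2 and 34.8 CPM in striatum and 17.6, 16.1 and 26.1 CPM in hippocampus (log2 difference 1.48, or 1.05 without striatum 2).

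Col27a1 encodes a fibrillar collagen chain and was at 59.5, 183 and 78.2 CPM in striatum, against 22.8, 16.99 and 42.8 CPM in hippocampus. Striatum 2 held more than the other striatum libraries, and the log2 difference of 1.96 became 1.32 without it. Stx19, a syntaxin of the membrane fusion family, was at 1.89, 6.63 and 1.03 CPM in striatum and was at 0 in all hippocampus libraries. Over the 3 libraries of each region its level was at least 28.4-fold higher in striatum, computed against a floor of 3 counts over hippocampus. The level was low in every striatum library.

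Ccr1 (chromosome 9, 123962124 to 123968692), a receptor for inflammatory chemokines such as CCL3 and CCL5, was at 68.6, 29.7 and 60.2 CPM in striatum 1, 2 and 3, against 188, 137 and 175 CPM in hippocampus 1, 2 and 3. It had the smallest p of all genes, with a log2 difference of −1.65 (SE 0.36, 95% interval −2.42 to −0.89) and −1.37 without striatum 2. DESeq2 gave it an adjusted p of 0.0729, the lowest of any gene named here in any alternative, and over its 14 alternatives the adjusted p ran up to 1.00 and the log2 difference from −1.89 to −1.37. The cortex mean of 159.7 ± 31.0 CPM was near that of hippocampus and the cerebellum mean of 95.2 ± 37.7 CPM lay between (SD, n = 3 each).

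Cd74, the invariant chain that escorts MHC class II molecules, was at 54.9, 18.4 and 45.6 CPM in striatum and 126, 62.0 and 95.1 CPM in hippocampus. The lowest hippocampus library was only just above the highest of striatum. The log2 difference was −1.25 and −0.91 without striatum 2. Cd300lb, an activating receptor of myeloid cells, had 1 count over the 3 striatum libraries and 202 over the 3 hippocampus libraries. The ratio of striatum to hippocampus, scaled to library size, was 0.00602 (95% exact interval for counting error only, 0.000152 to 0.0339). Cd300lb stood at 3.06, 12.4 and 3.03 CPM in hippocampus, so that hippocampus 2 carried most of its signal.

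Wdr75 (chromosome 1, 45795166 to 45823619), a nucleolar protein needed to process ribosomal RNA, was at 22.8, 11.3 and 28.3 CPM in striatum and 76.1, 55.9 and 46.2 CPM in hippocampus. Its log2 difference was −1.51 (SE 0.36, 95% interval −2.28 to −0.73) and −1.21 without striatum 2. Nsun2, a methyltransferase that marks cytosines in transfer RNA, was at 101, 97.8 and 98.9 CPM in striatum and 170.0, 159 and 143 CPM in hippocampus. The striatum libraries of Nsun2, striatum 2 included, hardly differed from one another, and the log2 difference was −0.67 with and −0.65 without striatum 2. Phgdh (chromosome 3, 98313170 to 98339990), the enzyme at the entry to serine synthesis, was at 167, 153 and 206 CPM in striatum and 265, 369 and 272 CPM in hippocampus (log2 difference −0.78, or −0.69 without striatum 2).

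The last lower genes were at low or scattered levels. Tshz1, a zinc finger transcription factor, was at 1.18, 2.59 and 4.35 CPM in striatum and 45.4, 17.1 and 5.44 CPM in hippocampus, and hippocampus 3 was close to striatum 3. Ppic, a cyclophilin of the secretory pathway, was at 1.54, 0.162 and 2.69 CPM in striatum and 7.48, 18.7 and 10.5 CPM in hippocampus (log2 difference −3.02, or −2.51 without striatum 2). Ctla2a, an inhibitor of cathepsin L-like proteases, had no count in striatum and was at 2.74, 2.59 and 1.55 CPM in hippocampus. Its level over the 3 libraries was at least 20.3-fold lower in striatum, against the floor of 3 counts. Sncaip, whose product binds alpha-synuclein, was at 34.0, 9.38 and 33.5 CPM in striatum and 69.6, 49.0 and 84.9 CPM in hippocampus (log2 difference −1.40, or −1.005 without striatum 2).

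Without striatum 2 other genes came to the front. Dip2a was at 21.1, 8.89 and 39.8 CPM in striatum and 9.28, 10.7 and 7.46 CPM in hippocampus, and its log2 difference was 1.35 with striatum 2 and 1.74 without. Atg2b, a lipid transfer protein of the growing autophagosome, was at 31.5, 0 and 42.5 CPM in striatum and 12.3, 11.7 and 11.2 CPM in hippocampus (log2 difference 1.07, or 1.66 without striatum 2). Striatum 2 had no read of Atg2b, a gene that the other 5 libraries held at over 10 CPM. Fam129c was at 37.5, 0.970 and 10.2 CPM in striatum and 1.16, 3.88 and 3.42 CPM in hippocampus (log2 difference 2.52, or 3.07 without striatum 2).

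In the lower direction, Rnase10, a member of the ribonuclease A family, was at 2.72, 0 and 2.38 CPM in striatum and 14.8, 16.9 and 13.4 CPM in hippocampus. Its log2 difference was −3.11 with striatum 2 and −2.55 without. Gsr, glutathione reductase, which restores reduced glutathione, was at 26.6, 48.0 and 29.1 CPM in striatum and 52.9, 65.2 and 57.4 CPM in hippocampus (log2 difference −0.76, or −1.07 without striatum 2). Fads2, a desaturase of polyunsaturated fatty acid synthesis, was at 0.710, 17.8 and 1.19 CPM in striatum and 3.79, 12.9 and 14.6 CPM in hippocampus. Striatum 2 was the highest of the 6 libraries for Fads2, whereas striatum 1 and 3 were the lowest, and the log2 difference was −0.68 with striatum 2 and −3.43 without it.

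Of 28 homeostatic genes tested, 18 lay higher and 10 lower in striatum, 0 had an unadjusted p under 0.05 and 4 did not overlap, all of them higher, where 4.9% of all genes did not overlap and lay higher. The median log2 difference was 0.04, and 0.01 without striatum 2 (15 higher and 13 lower). The median and its sign moved with the processing: it was −0.00 with upper-quartile scaling, −0.06 without hippocampus 3, 0.09 without hippocampus 2 (22 higher and 6 lower) and 0.16 with the correction for transcript length given further on (4 of 28 lower). Tmem119, whose protein was the sorting gate, was at 2204, 1504 and 1489 CPM in striatum and 2134, 1952 and 1712 CPM in hippocampus (log2 difference −0.16, 95% interval −0.88 to 0.57). The purinergic receptor gene P2ry12 was at 6022, 4758 and 4436 CPM in striatum and 5231, 5092 and 4298 CPM in hippocampus (log2 difference 0.06, 95% interval −0.30 to 0.42). The libraries of the regions overlapped in these genes, and the intervals bound any difference in P2ry12 more tightly than in Tmem119.

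Csf1r, the receptor on which microglia depend, was at 9637, 10740.1 and 8284 CPM in striatum and 8202, 7290.4 and 7972 CPM in hippocampus. Its libraries did not overlap, and the log2 difference was 0.29 (SE 0.15, 95% interval −0.03 to 0.61) with striatum 2 and 0.20 without. Sall1, a transcription factor that keeps microglial identity, was at 696, 834 and 858 CPM in striatum and 565, 322 and 668 CPM in hippocampus (log2 difference 0.62, 95% interval −0.15 to 1.39). Hippocampus 2 was the lowest library of Sall1. Gpr56, an adhesion receptor, was at 907, 970.1 and 897 CPM in striatum and 768, 686 and 833 CPM in hippocampus (log2 difference 0.28). The fractalkine receptor gene Cx3cr1 had a log2 difference of −0.17 (95% interval −0.75 to 0.41). That of Apoe, the lipid carrier, was 0.14 (95% interval −0.64 to 0.91).

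**Figure D2:**
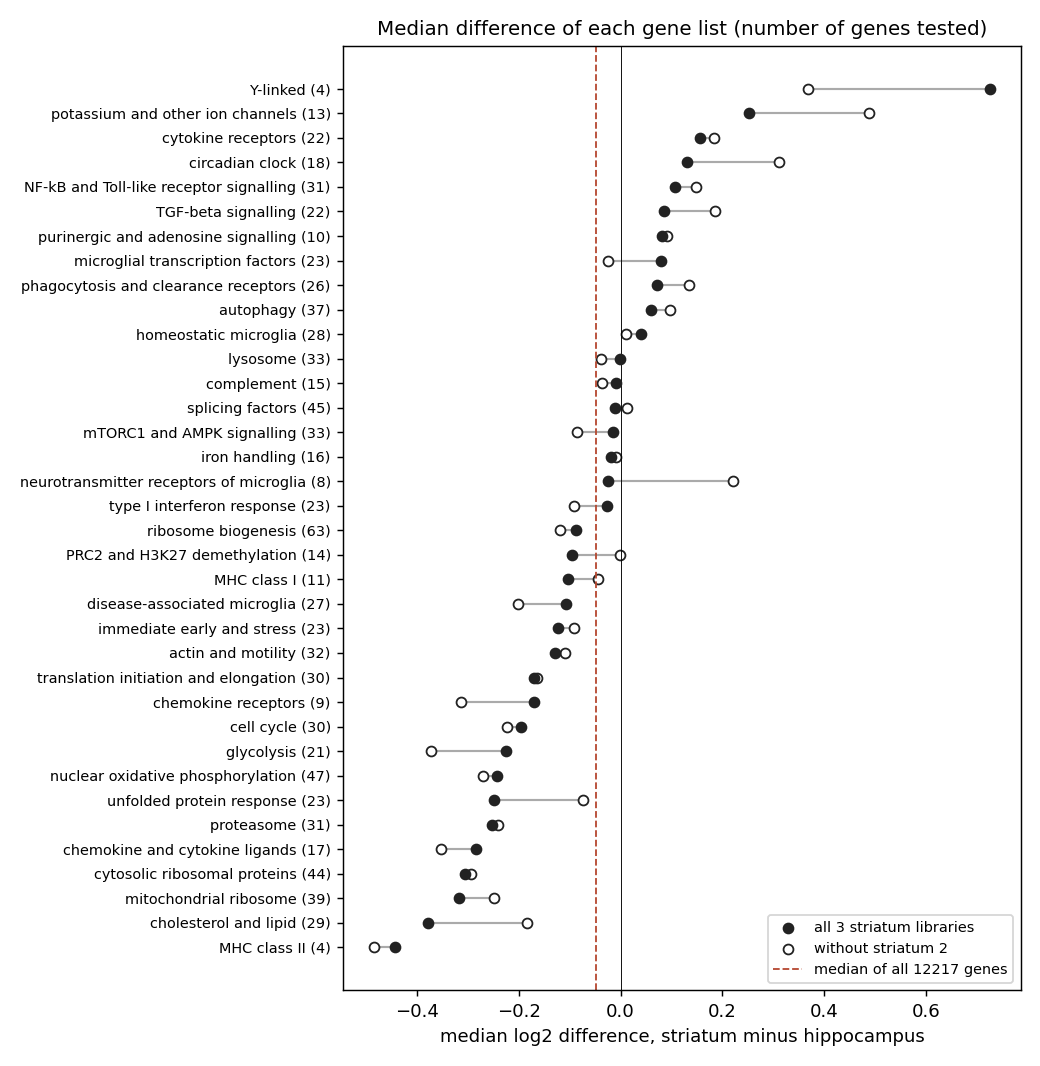
Median log2 difference, striatum minus hippocampus, of the 36 lists of microglial and general genes, with all striatum libraries (filled) and without striatum 2 (open); the number tested is in brackets. The dashed line is the median of all 12217 genes, −0.05, and the lists of ribosomal, respiratory and proteasome genes sit left of it with and without striatum 2.

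Receptors for cytokines lay mostly higher in striatum. Of 22 tested, 17 lay higher and 5 lower, with and without striatum 2 alike. Of the list 1 gene, a higher one, had an unadjusted p under 0.05 (2.78% of all genes were higher at that p). The libraries of 5 did not overlap, all higher (4.9% of all genes). The median was 0.16, and 0.18 without striatum 2. Besides Csf1r, the interferon receptor subunit gene Ifnar2 was at 200.5, 252 and 178 CPM in striatum and 165, 166 and 128 CPM in hippocampus (log2 difference 0.45, or 0.31 without striatum 2). Il4ra, the receptor chain for interleukins 4 and 13, was at 251, 314 and 282 CPM in striatum and 229, 218 and 246 CPM in hippocampus (log2 difference 0.29, or 0.21 without striatum 2). In these genes no striatum library lay below a hippocampus library.

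In NF-kB and Toll-like receptor signalling, 22 of 31 genes lay higher in striatum and 9 lower (median 0.11, and 0.15 without striatum 2). The median ran from 0.07 to 0.23 when any 1 of the 6 libraries was left out. An unadjusted p under 0.05 was reached by 2 genes, both higher, where 2.78% of all genes were higher at that p. Without striatum 2 none of the list stood at that level. Nfkb2, which encodes the p100 precursor of the non-canonical pathway, was at 51.5, 104 and 60.4 CPM in striatum and 51.0, 32.4 and 29.6 CPM in hippocampus (log2 difference 0.93, or 0.57 without striatum 2). Irak2, a kinase of Toll-like receptor signalling, was at 101, 290.3 and 124 CPM in striatum and 95.9, 99.5 and 82.5 CPM in hippocampus, so that striatum 2 set most of its log2 difference of 0.89 (0.28 without it). Rela, the main activating NF-kB subunit, ran the other way, at 139, 123 and 137 CPM in striatum and 176, 152 and 177 CPM in hippocampus (log2 difference −0.34). Of 23 genes of the type I interferon response, 11 lay higher and 12 lower, and 8 and 15 without striatum 2. Stat2, which carries the interferon signal to the nucleus, was the 1 gene of that list at an unadjusted p under 0.05 (2.78% of all genes were higher at that p). Stat2 was at 96.9, 183 and 103 CPM in striatum and 69.4, 37.7 and 88.2 CPM in hippocampus (log2 difference 0.97, or 0.62 without striatum 2).

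Antigen presentation by MHC class II lay lower. All 4 tested genes of the list were lower in striatum, with a median of −0.44 and −0.48 without striatum 2. Cd74 was the 1 at an unadjusted p under 0.05, where 1.56% of all genes were lower at that p. H2-Ab1, a chain of the class II molecule, was at 7.34, 14.23 and 9.58 CPM in striatum and 12.2, 15.98 and 17.3 CPM in hippocampus, with overlap between the regions. Its log2 difference was −0.55 (95% interval −1.76 to 0.66) with striatum 2 and −0.84 without. The other 3 genes of the list, H2-Aa, H2-Eb1 and Ciita, were at 1.66 CPM or less in all 6 libraries and were not tested. The class II median was −0.33 without hippocampus 2, and −0.27 with 3 of 4 lower under the correction for transcript length described further on. The 11 genes of MHC class I presentation were divided, with 5 higher and 6 lower in striatum and a median of −0.10 (−0.04 without striatum 2).

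Chemokine receptors lay higher in 4 and lower in 5 of the 9 tested (median −0.17), and in 2 and 7 without striatum 2 (median −0.31). An unadjusted p under 0.05 was reached by 2, Ccr1 and C3ar1, both lower (22.2% of the list, where 1.56% of all genes were lower at that p). Without striatum 2, 1 lower gene of the list stood at that level (2.68% of all genes in either direction). C3ar1, the receptor for the complement fragment C3a, was at 303, 216 and 338 CPM in striatum and 405, 407 and 459 CPM in hippocampus (log2 difference −0.57, or −0.40 without striatum 2). Chemokine and cytokine ligands lay higher in 7 and lower in 10 of 17, with and without striatum 2 alike (median −0.28, and −0.35 without it). Their median was −0.02 without striatum 1, and −0.07 under the correction for transcript length described further on (9 of 17 lower). Il6, a cytokine gene of that list, was near the detection limit, at 0, 0 and 0.317 CPM in striatum and 2.74, 2.31 and 2.95 CPM in hippocampus. Of 27 genes of the disease-associated state, 8 lay higher and 19 lower in striatum (median −0.11, and −0.20 without striatum 2), with 0 at an unadjusted p under 0.05. Clec7a, the beta-glucan receptor, came closest, at 6.27, 2.75 and 11.96 CPM in striatum and 21.2, 60.3 and 29.5 CPM in hippocampus (log2 difference −2.39, 95% interval −4.95 to 0.16). The median of this list turned to 0.12 without hippocampus 2 and to 0.02 without striatum 1. With the correction for transcript length it was −0.05 (15 of 27 lower).

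Genes of protein synthesis, respiration and protein breakdown lay lower in striatum in many small steps. Of 44 cytosolic ribosomal protein genes, 42 lay lower (median −0.31, and −0.29 without striatum 2). Of 47 nuclear genes of oxidative phosphorylation, 41 lay lower (median −0.24), and all 47 without striatum 2 (median −0.27). Over all genes tested 46.1% lay higher. The mitochondrial ribosome (29 of 39 lower, median −0.32), the proteasome (27 of 31 lower, median −0.25) and the factors of translation initiation and elongation (25 of 30 lower, median −0.17) ran the same way. Without striatum 2 the lower genes were 33 of 39, 30 of 31 and 27 of 30 in these lists, with medians of −0.25, −0.24 and −0.16. At an unadjusted p under 0.05 stood 4 proteasome genes, 1 respiratory gene and 1 mitochondrial ribosomal gene in the lower direction, and 0 cytosolic ribosomal genes, where 1.56% of all genes were lower at that p. Without striatum 2 these counts were 2, 0, 0 and 0, where 2.68% of all genes stood at that p in either direction. Ribosomal protein genes have near-identical pseudogene copies, and how the authors' counting treated such reads is not given in the sources used here.

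Single members show the size of these steps. Psmb4, a subunit of the proteasome core, was at 45.0, 48.3 and 59.4 CPM in striatum and 78.3, 94.5 and 80.7 CPM in hippocampus (log2 difference −0.73, or −0.69 without striatum 2). Psmc6, an ATPase of the proteasome cap, was at 59.5, 80.0 and 70.0 CPM in striatum and 108, 119 and 83.9 CPM in hippocampus (log2 difference −0.57, or −0.67 without striatum 2). The libraries of these genes did not overlap. Uqcrc2, a core subunit of respiratory complex III, was at 65.7, 63.5 and 68.5 CPM in striatum and 76.6, 148 and 100.3 CPM in hippocampus (log2 difference −0.72). Rplp0, a protein of the ribosomal stalk, was at 191, 159 and 188 CPM in striatum and 230.1, 310.3 and 224 CPM in hippocampus (log2 difference −0.51, 95% interval −1.07 to 0.05). Eef1g, a subunit of the elongation factor that delivers transfer RNA, was at 64.7, 55.6 and 59.5 CPM in striatum and 83.0, 88.4 and 74.3 CPM in hippocampus (log2 difference −0.45). In Uqcrc2 and Rplp0 hippocampus 2 was well above the other hippocampus libraries.

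Hippocampus 2 also set most of the ribosomal and respiratory medians. Scored as the mean log2 deviation of a list from the mean of the 6 libraries, ribosomal protein genes stood at −0.17, −0.19 and −0.07 in striatum 1, 2 and 3, against 0.04, 0.51 and −0.11 in hippocampus 1, 2 and 3. Respiratory genes stood at −0.18, −0.11 and −0.07 in striatum, against 0.01, 0.49 and −0.14 in hippocampus. Hippocampus 3 lay within the striatum range in these lists. Without hippocampus 2 the ribosomal median was −0.08 with 29 of 44 lower, and the respiratory median −0.04 with 28 of 47 lower, where 48.4% of all genes lay higher. The median of the mitochondrial ribosome was then −0.15, with 26 of 39 lower.

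Proteasome and translation factor genes depended less on that library. The proteasome list stood at −0.08, −0.35 and −0.07 in striatum and 0.14, 0.36 and −0.01 in hippocampus, and the list of translation factors at −0.05, −0.14 and −0.09 in striatum and 0.05, 0.10 and 0.13 in hippocampus. The regions did not overlap in these lists. Without hippocampus 2, the proteasome median was −0.19 (25 of 31 lower) and that of the translation factors −0.17 (24 of 30 lower).

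**Figure D3:**
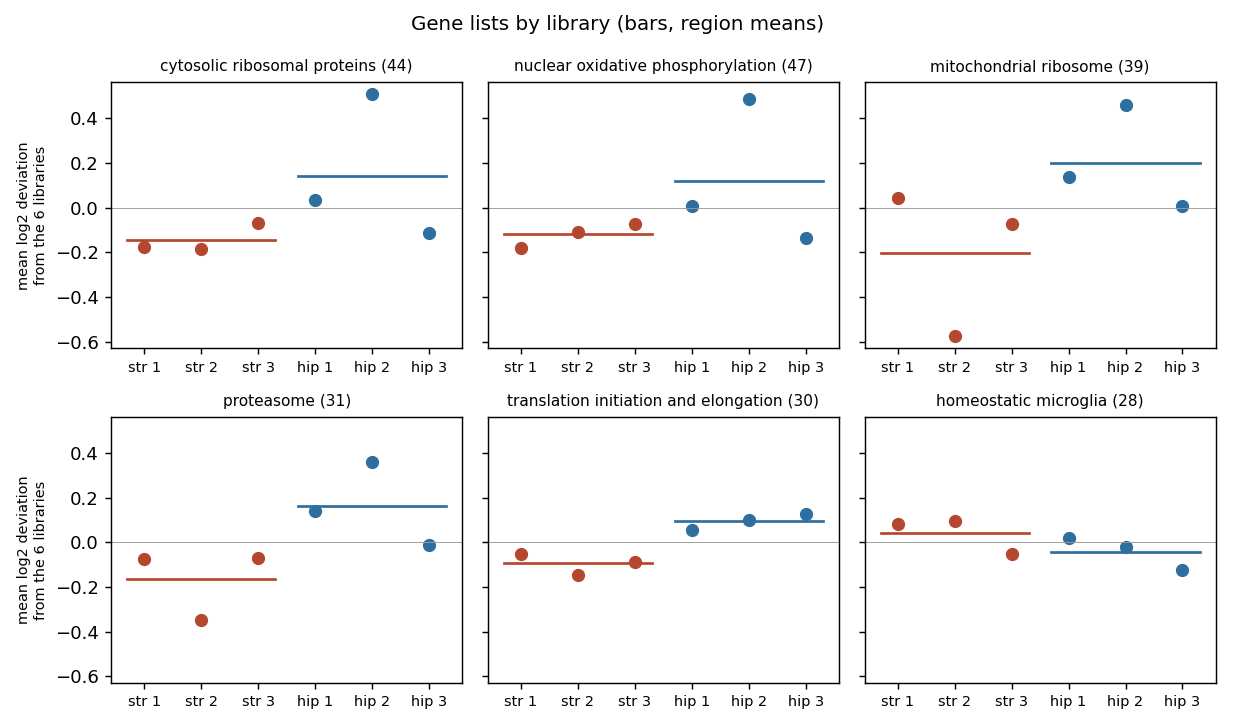
Mean log2 deviation of 6 gene lists from the mean of the 6 libraries, 1 point per library, with bars at region means and the number of genes in brackets. Hippocampus 2 stands at 0.51 for cytosolic ribosomal proteins and 0.49 for respiratory genes while hippocampus 3 lies among the striatum libraries, and translation factors are below 0 in all striatum libraries and above 0 in all hippocampus libraries.

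Transcript length moved with the difference over all genes. For 12061 of the tested genes (98.7%) a length was found in the annotation. In quintiles of these genes from the shortest to the longest transcripts, with median lengths of 1360, 2398.5, 3328, 4409 and 6632 bases, the median log2 difference was −0.17, −0.12, −0.04, 0.03 and 0.11. The share of genes higher in striatum was 34.7% in the shortest quintile and 57.8% in the longest. Without striatum 2 the medians were −0.12, −0.06, −0.00, 0.06 and 0.14, so the order was kept.

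The median transcript was 1139.5 bases long in the ribosomal list and 1232 in the respiratory list, against 3328 over all genes. With the trend in length taken out, a correction added after the data were seen, the ribosomal median was −0.16 (32 of 44 lower) and the respiratory median −0.05 (31 of 47 lower). The median of the mitochondrial ribosome was then −0.17 (27 of 39 lower). The proteasome median was then −0.13 (22 of 31 lower) and that of the translation factors −0.09 (18 of 30 lower). The part of length in these lists beyond that correction was not tested.

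**Figure D4:**
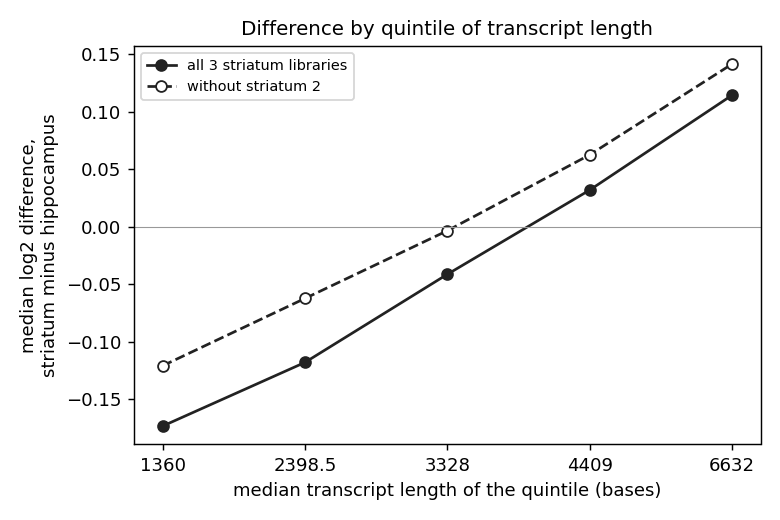
Median log2 difference, striatum minus hippocampus, in quintiles of the 12061 genes with a known transcript length, ordered from short to long and spaced evenly, with all striatum libraries (filled) and without striatum 2 (open). The line climbs from −0.17 in the shortest quintile to 0.11 in the longest.

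Autophagy genes as a list did not follow Ulk1. Of 37 tested, 19 lay higher and 18 lower (median 0.06, and 0.10 without striatum 2). Among them 2 higher and 1 lower had an unadjusted p under 0.05 (8.11% of the list, against 4.34% of all genes). Calcoco1, a receptor that links cargo to autophagosomes, was at 65.0, 106 and 68.6 CPM in striatum and 45.6, 46.2 and 38.7 CPM in hippocampus (log2 difference 0.88, or 0.62 without striatum 2). Atg14, which targets the lipid kinase VPS34 to forming autophagosomes, was at 22.6, 38.1 and 30.4 CPM in striatum and 63.9, 41.0 and 49.4 CPM in hippocampus (log2 difference −0.76, or −0.95 without striatum 2). Lysosomal genes were split as well, 16 higher and 17 lower of 33, with a median of −0.00, but 11 higher and 22 lower without striatum 2 and 22 higher and 11 lower without hippocampus 2. Neu1, the lysosomal sialidase, was the 1 lysosomal gene at an unadjusted p under 0.05 (2.78% of all genes were higher at that p). Neu1 was at 142, 274 and 142 CPM in striatum and 93.6, 129 and 111 CPM in hippocampus. Striatum 2 carried much of its log2 difference of 0.74 (0.36 without striatum 2).

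Among 33 genes of mTORC1 and AMPK signalling, which control growth and autophagy, 16 lay higher and 17 lower in striatum, and 14 and 19 without striatum 2. An unadjusted p under 0.05 was reached by 1 higher and 3 lower genes (12.1% of the list, against 4.34% of all genes). Without striatum 2 these were 1 higher and 1 lower, where 2.68% of all genes stood at that p in either direction. Rragc, a GTPase that brings mTORC1 to the lysosome, was at 166, 65.1 and 174 CPM in striatum and 191, 249 and 223 CPM in hippocampus (log2 difference −0.71, or −0.38 without striatum 2). Its relative Rragd had no count in striatum and was at 0, 3.51 and 5.98 CPM in hippocampus, at least 31.5-fold lower over the 3 libraries, but hippocampus 1 was at 0 too. Eif4ebp1, a translation repressor that mTORC1 switches off, was at 29.7, 6.30 and 28.7 CPM in striatum and 42.3, 59.4 and 37.9 CPM in hippocampus (log2 difference −1.11, or −0.67 without striatum 2). Striatum 2 was the lowest library of Rragc and of Eif4ebp1.

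Ribosome biogenesis genes, the list that holds Wdr75, lay lower in 41 of 63 (median −0.09, and −0.12 without striatum 2). Npm1, a nucleolar chaperone, was at 114, 91.7 and 102 CPM in striatum and 116, 150.4 and 158 CPM in hippocampus (log2 difference −0.46). Ubtf, a factor for transcription by RNA polymerase I, lay the other way, at 102, 182 and 122 CPM in striatum and 72.0, 91.8 and 95.1 CPM in hippocampus (log2 difference 0.65, or 0.38 without striatum 2). Of 45 splicing factors, 21 lay higher and 24 lower, with a median of −0.01 (0.01 without striatum 2).

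Of 29 genes of cholesterol and lipid metabolism, 20 lay lower in striatum (median −0.38, and −0.18 without striatum 2 or −0.67 without striatum 1). Cyp51, the lanosterol demethylase of cholesterol synthesis, was at 32.9, 24.9 and 58.3 CPM in striatum and 62.5, 64.5 and 142 CPM in hippocampus (log2 difference −1.21, or −0.97 without striatum 2). Srebf1, a transcription factor of lipid synthesis, was at 122, 66.3 and 131 CPM in striatum and 157, 151 and 149 CPM in hippocampus, with striatum 2 the lowest library (log2 difference −0.52, or −0.27 without it). Of 30 cell cycle genes, 20 lay lower (median −0.19, and −0.22 without striatum 2). The median was −0.01 without striatum 3 and −0.39 without striatum 1, and the list stood at −0.27 in striatum 3, against 0.00 and −0.01 in striatum 1 and 2. Pcna, the sliding clamp of DNA replication, was at 112, 76.9 and 113 CPM in striatum and 147, 167 and 138 CPM in hippocampus, and Mcm2, a subunit of the replicative helicase, at 183, 67.4 and 205 CPM in striatum and 217, 251 and 308 CPM in hippocampus. Their log2 differences were −0.59 for Pcna and −0.77 for Mcm2, and −0.42 and −0.41 without striatum 2.

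In glycolysis 16 of 21 genes lay lower in striatum (median −0.22, and −0.37 without striatum 2). Ldha, lactate dehydrogenase A, was at 256, 237 and 317 CPM in striatum and 272, 480.1 and 364 CPM in hippocampus (log2 difference −0.46, 95% interval −0.98 to 0.06). Hk3, a hexokinase of myeloid cells, was at 361, 518 and 384 CPM in striatum and 379, 306 and 271 CPM in hippocampus, in the other direction (log2 difference 0.40, 95% interval −0.00 to 0.80). Without striatum 2 the log2 difference was 0.23 for Hk3 and −0.37 for Ldha. Of 16 genes of iron handling 6 lay higher and 10 lower, and 8 and 8 without striatum 2. Slc25a37, which carries iron into mitochondria, was at 44.4, 32.0 and 33.7 CPM in striatum and 30.3, 17.5 and 12.05 CPM in hippocampus (log2 difference 0.88, or 0.97 without striatum 2), with no overlap.

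Genes of the Y chromosome differed among themselves, although all mice were male. Kdm5d (chromosome Y, 897788 to 956786), a demethylase of histone H3 lysine 4, was at 63.4, 126 and 55.3 CPM in striatum and 15.3, 16.8 and 15.3 CPM in hippocampus. Its log2 difference was 2.36 (SE 0.58, 95% interval 1.11 to 3.62) with striatum 2 and 1.91 without, and its mean was 12.2 ± 3.36 CPM in cortex and 27.5 ± 24.9 CPM in cerebellum (SD, n = 3 each). Ddx3y, an RNA helicase, was at 117, 212 and 144 CPM in striatum and 116, 71.9 and 69.0 CPM in hippocampus (log2 difference 0.88, or 0.61 without striatum 2). Eif2s3y, a subunit of a translation initiation factor, overlapped between the regions, at 112, 203 and 81.7 CPM in striatum and 78.2, 118 and 70.4 CPM in hippocampus. Uty, a relative of a histone H3 lysine 27 demethylase and outside the rule for named genes, was at 31.0, 0.323 and 36.8 CPM in striatum and 28.5, 27.6 and 44.8 CPM in hippocampus, and was nearly absent from striatum 2 alone. These genes have close relatives on the X chromosome, whose reads the authors' counting could split.

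Transcripts of other cells were uneven between libraries. The 8 tested markers of choroid plexus and ependyma all lay higher in striatum (median 4.29), and 6 of 8 without striatum 2 (median 1.93). The whole list of 14 markers summed to 49.5, 969.9 and 130.5 CPM in striatum 1, 2 and 3, against 0.105, 64.7 and 2.33 CPM in hippocampus 1, 2 and 3. Ttr, transthyretin, which the choroid plexus secretes, was at 35.1, 579.8 and 87.2 CPM in striatum and 0, 43.0 and 0 CPM in hippocampus. Clic6, a chloride channel family member, was at 3.43, 40.1 and 13.22 CPM in striatum and 0, 1.57 and 0 CPM in hippocampus. Kcne2, a potassium channel subunit, was at 0.118, 18.8 and 0 CPM in striatum and was at 0 in all hippocampus libraries, at least 47.5-fold higher over the 3 libraries, nearly all of it from striatum 2. The choroid plexus sum was highest in striatum 2, the library that stood apart, and its part in the results of other genes was not tested.

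Of 10 tested pan-neuronal markers, 9 lay lower in striatum (median −0.68, and −1.30 without striatum 2), with 0 at an unadjusted p under 0.05. Without hippocampus 2, 6 of 10 lay lower (median −0.61). Their sums were 20.1, 18.91 and 13.9 CPM in striatum, against 24.6, 59.2 and 27.2 CPM in hippocampus, highest in hippocampus 2. Snap25, a protein of synaptic vesicle fusion, was at 0, 0 and 0.633 CPM in striatum and 2.003, 4.06 and 1.17 CPM in hippocampus. The neuropeptide gene Sst was at 0, 0 and 0.554 CPM in striatum and 10.01, 15.8 and 0.311 CPM in hippocampus, and Npy had no count in striatum and was at 6.01, 4.80 and 0.311 CPM in hippocampus. Sst, Npy, Ttr and Enpp2 were chosen after their values were seen. Enpp2, which encodes autotaxin, a product of choroid plexus and oligodendrocytes, was at 5.21, 158 and 23.4 CPM in striatum and 0, 8.87 and 1.17 CPM in hippocampus.

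Of 6 tested markers of hippocampal neurons, 2 lay higher and 4 lower in striatum (median −0.25), and 3 and 3 without striatum 2 (median 0.02). That whole list summed to 63.8, 90.7 and 36.1 CPM in striatum, against 30.7, 46.1 and 64.4 CPM in hippocampus, so the regions overlapped. Lhx9 and C1ql3, members too low to be tested and chosen after their values were seen, were at 17.8 and 13.6 CPM in striatum 2 and under 1 CPM in the other 5 libraries.

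Markers of the neurons of the striatum were largely missing from the striatum libraries. Of the 17 such markers in the count table, 4 were expressed enough to be tested, and Drd2, Tac1, Rgs9, Gpr6 and Rasd2 had no count in any of the 6 libraries. Of these 4, 2 lay higher, Foxp1 and Pde1b, and 2 lay lower in striatum, Ppp1r1b and Gng7 (median 0.25). Without striatum 2, 3 lay higher and 1 lower (median 0.49). Foxp1, a transcription factor, was at 36.1, 70.6 and 44.4 CPM in striatum and 34.5, 20.6 and 19.7 CPM in hippocampus (log2 difference 1.01, or 0.69 without striatum 2). Pde1b, a calcium-dependent phosphodiesterase, was at 61.7, 56.4 and 60.2 CPM in striatum and 44.1, 26.8 and 35.7 CPM in hippocampus (log2 difference 0.74, or 0.78 without striatum 2). The libraries of the regions did not overlap in Foxp1 and Pde1b, whereas they overlapped in the 2 lower genes (4.9% of all genes did not overlap and lay higher). Among the 4 tested, 1 higher gene had an unadjusted p under 0.05, where 2.78% of all genes were higher at that p. Without striatum 2, 0 of the 4 stood at that level.

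Markers of B cells were uneven too. Cd79a, a chain of the B cell receptor complex, was at 33.3, 0 and 0 CPM in striatum and 0.949, 0.185 and 0 CPM in hippocampus, so that nearly all of it came from striatum 1. Cd79b, the partner chain, was in every library, at 161, 92.5 and 109 CPM in striatum and 148, 148 and 114 CPM in hippocampus. The B cell marker Ms4a1 and the T cell genes Cd3e, Cd3d and Cd3g had no count in any of the 6 libraries. Cbr2, an enzyme of border-associated macrophages, was at 2.60, 8.24 and 5.38 CPM in striatum and 12.65, 13.8 and 14.5 CPM in hippocampus without overlap (log2 difference −1.33, or −1.76 without striatum 2), in a list of 13 tested markers that divided into 8 higher and 5 lower, and 7 and 6 without striatum 2. Of the tested markers, 5 of 9 for astrocytes, 3 of 6 for oligodendrocytes and 2 of 8 for endothelial cells lay higher in striatum, against 4 of 9, 4 of 6 and 4 of 8 without striatum 2, with 0 at an unadjusted p under 0.05 in any of these lists.

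**Figure D5:**
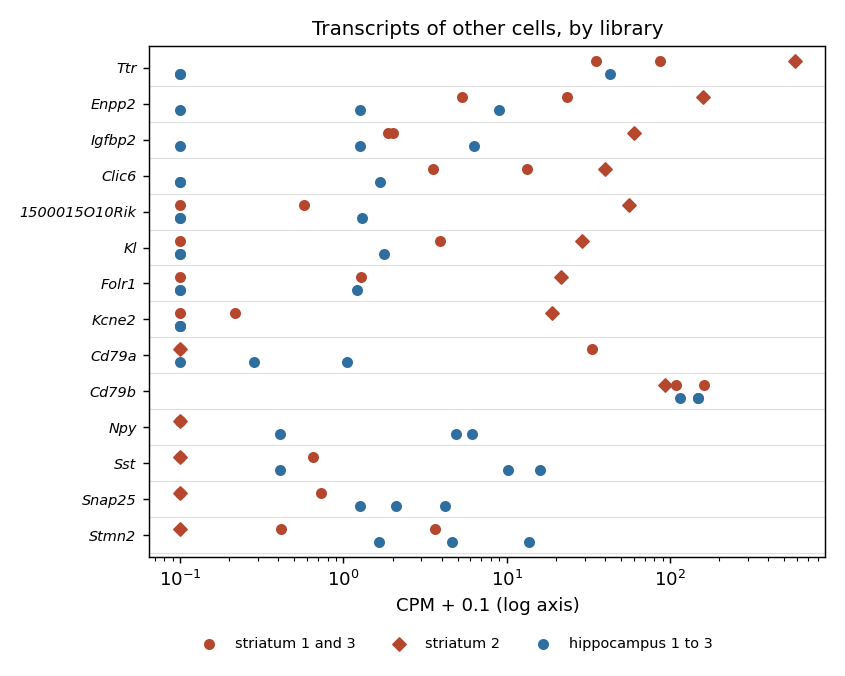
Level of 14 transcripts of choroid plexus, B cells and neurons as CPM + 0.1 on a log axis, 1 point per library. Striatum 2 is the highest library for the choroid plexus genes at the top, with Ttr at 580 CPM, and Cd79a stands out in striatum 1 alone.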

How the data were processed

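RNA of sorted microglia was measured in 3 libraries of striatum and 3 of hippocampus, within a series of 12 libraries from 4 regions. The authors deposited whole-number read counts per gene symbol, not normalized, for 23337 genes. Per the submitters' processing notes, the tools were STAR 2.5.3a, HTSeq, Picard and Trim Galore 0.4.3, and the build was mm10. For the annotation and the strand handling, the setting is not given in the sources used here. The kit keeps no strand, so a gene and an antisense partner share reads, as do near-identical copies.

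The analysis used edgeR 4.0.16 in R 4.3.3. The filter filterByExpr, grouped by region with a minimum count of 10 and a minimum total of 15, left 12217 genes. After TMM scaling, all 12 libraries were fitted together with 1 mean for each region. The robust quasi-likelihood test compared striatum with hippocampus, with Benjamini-Hochberg adjustment over all genes tested and a threshold of 0.05. A log2 difference is striatum minus hippocampus, and its standard error is that of the quasi-likelihood fit. CPM values use TMM-scaled library sizes. Where a region was at 0, the fold was taken against 3 counts summed over its libraries and is a bound, and a ratio over 1 to 3 counts carries an exact interval. In striatum 2, the smallest of all libraries, 3 counts are 0.485 CPM. No molecular identifiers were used, so that reads are not independent molecules and floors and intervals cover counting error only. Replicates of a region differed by more than sampling noise (chi-square divided by its degrees of freedom, 32.5 to 92.2), and none was counted as a duplicate. The scripts were tested on simulated data. Gene positions and transcript lengths came from GENCODE M21 on GRCm38, the assembly of mm10.

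The genes and lists were chosen with earlier results of these data known. Named genes are the 10 with the smallest p in each direction among genes whose libraries do not overlap, the 5 in each direction with the smallest p without striatum 2, up to 3 per list, and 7 genes of microglial identity, leaving out predicted genes, clones and ribosomal protein genes from the ranking over all genes. Some genes that this rule names are not reported here. Of the 50 lists, 36 hold functional groups and 14 markers of other cells, and lists are described by counts and medians without a test. Alternatives were DESeq2 1.42.0, limma-voom (limma 3.58.1) with and without quality weights, other scalings, no filter, the 6 libraries alone, a replicate block and leaving out each library. A length correction and medians with bounds were added after the data were seen.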

Additional observations from a re-analysis of the deposited data

How the results depend on the processing

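The count of genes called was 0 in each alternative that was run. The 530 genes at an unadjusted p under 0.05 became 535 with DESeq2 size factors, 491 with upper-quartile scaling (283 higher and 208 lower in striatum), 769 with DESeq2, 529 with limma-voom, 633 with quality weights, 379 of 11375 genes with the 6 libraries alone and 679 of 17184 without the filter. Without 1 library the count ran from 296 to 950 (817 without striatum 1, 327 without striatum 2 and 950 without striatum 3). It was 354 without hippocampus 1, 296 without hippocampus 2 and 430 without hippocampus 3. The count of genes whose libraries do not overlap was 2450 without striatum 2 and 1392 to 1472 under the scalings and without the filter. Of 1449 differences of 104 genes under the alternatives, 1443 kept their direction and side of the threshold and 6 turned their sign: Atg2b to −0.74 in limma-voom, P2ry12 to −0.0843 without striatum 1 and −0.0248 without hippocampus 3, Cd79a to −5.06 without striatum 1, Uty to 0.0153 without striatum 2 and Apoe to −0.0635 without hippocampus 1. Without 1 library these ran up to 0.15 for P2ry12, 0.42 for Apoe and 6.79 for Cd79a, and down to −1.09 for Uty. The cause was not tested. Setting genes at 0 to their bound left the medians of the lists named here as they were to 2 decimals. Replicate numbers are shared by the regions, and the labels do not say whether a number marks a shared dissection. Deviations from the region mean correlated at r = 0.0144, 0.0137 and 0.0733 between same-numbered libraries, against −0.0578 to 0.0255 between the others. With 3 libraries per region these values cannot decide whether the numbers pair them, and the main fit did not pair them. A replicate block gave 528 genes at an unadjusted p under 0.05 and 0 called. The median standard error was 1.66 (log2) in the lowest quintile by level and 0.25 in the highest. Striatum 2 had no count for 1510 of the 2444 genes of the lowest quintile and for 2 of the 2444 of the highest. The part of depth in these errors was not tested.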

Other observations

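Of 13 ion channel genes, 10 lay higher in striatum (median 0.25, and 0.49 without striatum 2), and Trpm4, a calcium-activated cation channel, was at 62.0, 126 and 68.3 CPM in striatum and 44.5, 47.2 and 48.0 CPM in hippocampus (log2 difference 0.87, or 0.49 without striatum 2). Of 18 clock genes 9 lay higher and 9 lower (median 0.13), and 11 and 7 without striatum 2 (median 0.31). Clock, a transcription factor at the centre of the circadian oscillator, was at 36.0, 136 and 51.3 CPM in striatum and 29.3, 19.303 and 19.4 CPM in hippocampus, with striatum 2 far above the rest (log2 difference 1.72, or 0.95 without it). Hlf, a transcription factor with circadian output, had 83 counts over the striatum libraries and 1 over the hippocampus libraries, most of them in striatum 1. In TGF-beta signalling, which maintains the microglial state, 14 of 22 lay higher (median 0.08, and 0.19 without striatum 2). Ltbp3, which holds latent TGF-beta, was at 5.56, 46.2 and 4.20 CPM in striatum and 0.105, 2.59 and 3.65 CPM in hippocampus, again with striatum 2 far above the rest.

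Among transcription factors of microglia 15 of 23 lay higher in striatum (median 0.08, and −0.02 without striatum 2), with 0 at an unadjusted p under 0.05. Phagocytosis and clearance receptors lay higher in 18 of 26 (median 0.07, and 0.13 without striatum 2), complement genes in 7 of 15 (median −0.01, and −0.04 without striatum 2) and purinergic and adenosine genes in 8 of 10 (median 0.08, and 0.09 without striatum 2). Timd4, a receptor for phosphatidylserine on dying cells, had no count in striatum and was at 3.06, 0.739 and 2.33 CPM in hippocampus, at least 18.4-fold lower over the 3 striatum libraries. Genes of actin and motility lay lower in 23 of 32 (median −0.13, and −0.11 without striatum 2). With the correction for transcript length the median of that list was −0.04 (20 of 32 lower). Among the lower genes was Arpc2, a subunit of the actin-branching complex, at 684, 519 and 632 CPM in striatum and 766, 887 and 766 CPM in hippocampus (log2 difference −0.40, or −0.29 without striatum 2). Genes of the unfolded protein response lay lower in 16 of 23 (median −0.25, and −0.07 without striatum 2). Hspa5, the chaperone of the endoplasmic reticulum, was at 1591, 987 and 1368 CPM in striatum and 1952, 1528 and 1768 CPM in hippocampus (log2 difference −0.41, or −0.24 without striatum 2). Immediate early and stress genes lay lower in 16 of 23 (median −0.12, and −0.09 without striatum 2). With the correction for transcript length their median was −0.00 (12 of 23 lower). Genes of PRC2 and H3K27 demethylation lay lower in 9 of 14 (median −0.10), and in 7 of 14 without striatum 2 (median −0.00). Alas2, which starts haem synthesis in red cell precursors, was at 2.13, 0 and 0.158 CPM in striatum and 11.1, 11.5 and 2.88 CPM in hippocampus.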
